A study of Mus musculus with 16 samples.

Results

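The striated muscle sarcomere genes are 41 genes, picked by name for their place in the contractile unit of skeletal and heart muscle, and the rule that picked them uses no measured value. All 41 were found, each in 1 row, among the 89407 rows of the count table, of which 53464 were Ensembl genes. RNA was sequenced from medullary thymic epithelial cells (mTEC) of 8 mice aged 4 to 6 weeks, each giving 1 mature and 1 immature library, so 16 libraries in all. Every mouse was homozygous for a floxed allele of either Rbfox1 or Rbfox2, which encode splicing factors. The tKO mice also carried 1 Foxn1 allele with Cre, which deletes in thymic epithelium, and their controls had wildtype Foxn1, so the Cre and the deletion cannot be told apart. Each line had 2 tKO and 2 control mice, 1 female and 1 male of each. The labels give the strain as C57BL/6 and the methods describe a mixed background with 129S2/Sv. Cells were sorted as CD45-, EpCAM+, Ly51- and UEA+, with high (mature) or low (immature) MHC class II. A library held 3737884 to 4636367 counts in mature and 1506134 to 2430287 in immature mTEC, and sarcomere genes held 0.123% to 0.142% and 0.0470% to 0.0752% of them. All levels below are CPM after TMM normalization, that is, counts scaled to the library's size.

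The sarcomere slides thick filaments of myosin heavy and light chains past thin filaments of actin, with troponin as the calcium switch. Titin and nebulin set its length, and Z-disc and M-band proteins hold the filaments in place. Genes of other tissues are transcribed at low levels in mTEC, many of them under AIRE, so that developing T cells meet the products, and the thymic medulla is also known to hold rare muscle-like cells. In bulk libraries like these, more cells with a transcript and more transcript per cell cannot be told apart.

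The 10 genes listed as mTEC markers summed to 9783 to 10860 CPM in mature and 10250 to 13030 CPM in immature libraries. Epcam and the MHC class II gene H2-Aa are among them, so the sum is partly set by the sort. H2-Aa was at 3996 to 5011 CPM in mature and 2138 to 2912 CPM in immature libraries. Aire was at 1225 and 1548 CPM in mature mTEC of Rbfox1 control and 634 and 682 CPM of Rbfox2 control mice, and at 214 and 298 against 41.2 and 35.9 CPM in immature mTEC, so this maturity marker differed between the lines. Krt5, a keratin of immature mTEC, had a mean of 564 CPM in mature and 4096 CPM in immature cells of control mice. Fibroblast markers summed to 339 to 634 CPM in mature mTEC, to 343 to 707 CPM in immature mTEC of the Rbfox1 line and to 1853 to 2773 CPM in immature mTEC of the Rbfox2 line. Smooth muscle and pericyte markers summed to 1177 to 1397 CPM in mature mTEC and 2869 to 4573 CPM in immature mTEC, endothelial markers to 30.9 to 43.1 and 26.6 to 212 CPM, and thymocyte and blood markers to 45.2 to 57.8 and 3.43 to 23.3 CPM. Acta2, Tagln and Rgs5 were higher in every immature library, and Myh11 and Mylk overlapped. Cnn1 (14.1 to 22.3 against 0 to 0.542 CPM) and Pdgfrb (64.4 to 90.4 against 12.25 to 50.2 CPM) were higher in every mature library. Col1a1 was at 151 to 186 CPM in mature and 35.55 to 96.8 CPM in immature mTEC of the Rbfox1 line. There Dcn and Pdgfra were higher in every immature library, and Col1a2, Col3a1 and Lum overlapped. The part of such non-epithelial cells in the results below was not tested. Of the targeted genes, Rbfox2 was lower in Rbfox2 tKO mice, with a log2 fold change of -2.14 (adjusted p = 1.3e-06, edgeR) in mature and -1.69 (adjusted p = 0.00053) in immature mTEC, whereas Rbfox1 in Rbfox1 tKO mice had -0.66 (adjusted p = 0.24) and -0.09 (adjusted p = 0.95). Counts cover the whole gene, also outside deleted exons. Foxn1 was at 433 and 429 against 253 and 254 CPM in mature mTEC of Rbfox1 tKO and control mice. In the Rbfox2 line it was at 360 and 407 against 263 and 248 CPM. In immature mTEC it was at 272 and 249 against 135 and 135, and at 186 and 197.5 against 142 and 111 CPM. The joint log2 fold change in immature mTEC was 0.79 ± 0.09 (SE, adjusted p = 0.00029, edgeR), under the fold threshold. Its part in the results below was not tested.

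Many muscle genes carry an E-box, the site of myogenic factors of the MyoD family, close to their start. The 250 bases before the start of 5 members called between mature and immature mTEC are shown 5′ to 3′ with the E-box CAGCTG in capitals, since 3 of them were lower and 2 were higher in mature mTEC. In Mybpc3 a MEF2 form, CTA and TAG with 4 bases between them, is also in capitals; this is looser than the MEF2 site, since any 4 bases were allowed where that site has A or T. Positions are those of GRCm38.p6 in RefSeq, namely chr8:123894776-123895025 (minus strand) for Acta1, chr1:66945057-66945306 (minus strand) for Myl1, chr10:88605153-88605402 (minus strand) for Mybpc1, chr1:135836084-135836333 (plus strand) for the more upstream start of Tnnt2, and chr2:91117894-91118143 (plus strand) for Mybpc3.
Acta1: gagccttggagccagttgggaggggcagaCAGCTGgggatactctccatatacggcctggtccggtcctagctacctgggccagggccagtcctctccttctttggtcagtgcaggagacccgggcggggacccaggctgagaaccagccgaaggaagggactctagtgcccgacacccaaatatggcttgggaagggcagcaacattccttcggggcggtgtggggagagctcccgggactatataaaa
Myl1: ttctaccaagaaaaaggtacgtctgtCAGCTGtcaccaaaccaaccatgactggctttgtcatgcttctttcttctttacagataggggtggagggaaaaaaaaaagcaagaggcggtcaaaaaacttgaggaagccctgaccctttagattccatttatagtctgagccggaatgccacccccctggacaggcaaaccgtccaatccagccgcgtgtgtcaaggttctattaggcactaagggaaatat
Mybpc1: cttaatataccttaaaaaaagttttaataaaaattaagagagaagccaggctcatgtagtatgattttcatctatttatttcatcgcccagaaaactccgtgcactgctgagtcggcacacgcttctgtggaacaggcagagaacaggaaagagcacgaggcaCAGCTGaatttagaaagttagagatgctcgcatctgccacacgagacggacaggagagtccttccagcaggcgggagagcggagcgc
Tnnt2: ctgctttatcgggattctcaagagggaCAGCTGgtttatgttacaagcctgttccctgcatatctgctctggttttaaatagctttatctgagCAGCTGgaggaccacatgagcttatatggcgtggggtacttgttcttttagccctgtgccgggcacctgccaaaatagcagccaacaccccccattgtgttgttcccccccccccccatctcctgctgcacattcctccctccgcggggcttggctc
Mybpc3: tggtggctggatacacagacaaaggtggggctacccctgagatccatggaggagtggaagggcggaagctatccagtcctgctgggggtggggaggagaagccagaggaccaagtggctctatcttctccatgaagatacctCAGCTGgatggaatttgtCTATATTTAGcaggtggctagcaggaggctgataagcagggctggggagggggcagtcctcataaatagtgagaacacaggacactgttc
RefSeq promoters were at hand for 35 members, in 45 windows. CAGCTG, which reads the same on both strands, was in 14 of these windows (31.1%) against 13.0% of all 32851 windows of the same length. The members were Acta1, Casq1, Ckm, Mb, Mybpc1, Mybpc3, Myh4, Myl1, Myl2, Mylpf, Tnni1 and Tnnt2. Of the members with a promoter, 3 of 14 that were higher in mature mTEC and 3 of 5 that were lower held the motif. So did 6 of 16 that were not called or not tested, and these shares were not compared by a test. The loose MEF2 form was found for 3 members, Ldb3, Mybpc3 and Ttn, in 6.67% of member windows and 3.20% of all, and the match of Ldb3 holds a C among the 4 bases. TGCATG was sought on both strands and was found for 7 members, in 15.6% of member windows and 9.51% of all. RBFOX proteins bind its RNA form, but a match on the other strand or before the start does not show such an RNA site. A match here is a run of letters and was not tested as a site.

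The sarcomere genes were not silent in either population. With each library thinned to 1506134 counts, 37 to 40 members had at least 1 count in mature and 30 to 35 in immature mTEC. Their summed level was 1201 to 1439 CPM in mature mTEC and 503 to 733 CPM in immature mTEC, without overlap. Actn3, which encodes the fast-fibre actinin of the Z-disc, made up 55.6% of the members' counts in mature and 47.0% in immature mTEC. Without the 3 members of highest mean level the sums were 387 to 475 and 221 to 376 CPM. Per kilobase of merged exons, Actn3 led in mature mTEC with 246 CPM, followed by the atrial light chain Myl7 with 41.4, the fast light chain Mylpf with 17.0 and the embryonic heavy chain Myh3 with 11.0. In immature mTEC Actn3 had 101 CPM per kilobase, followed by the skeletal actin Acta1 with 29.3, Mylpf with 18.3, the cardiac actin Actc1 with 12.7 and the fast light chain Myl1 with 11.9. Tnni2 was lowest in mature mTEC with 0.115 CPM per kilobase, and Myh2, with no count, in immature mTEC. These orders are descriptions and neighbours in them were not tested against each other.

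**Figure D1:**
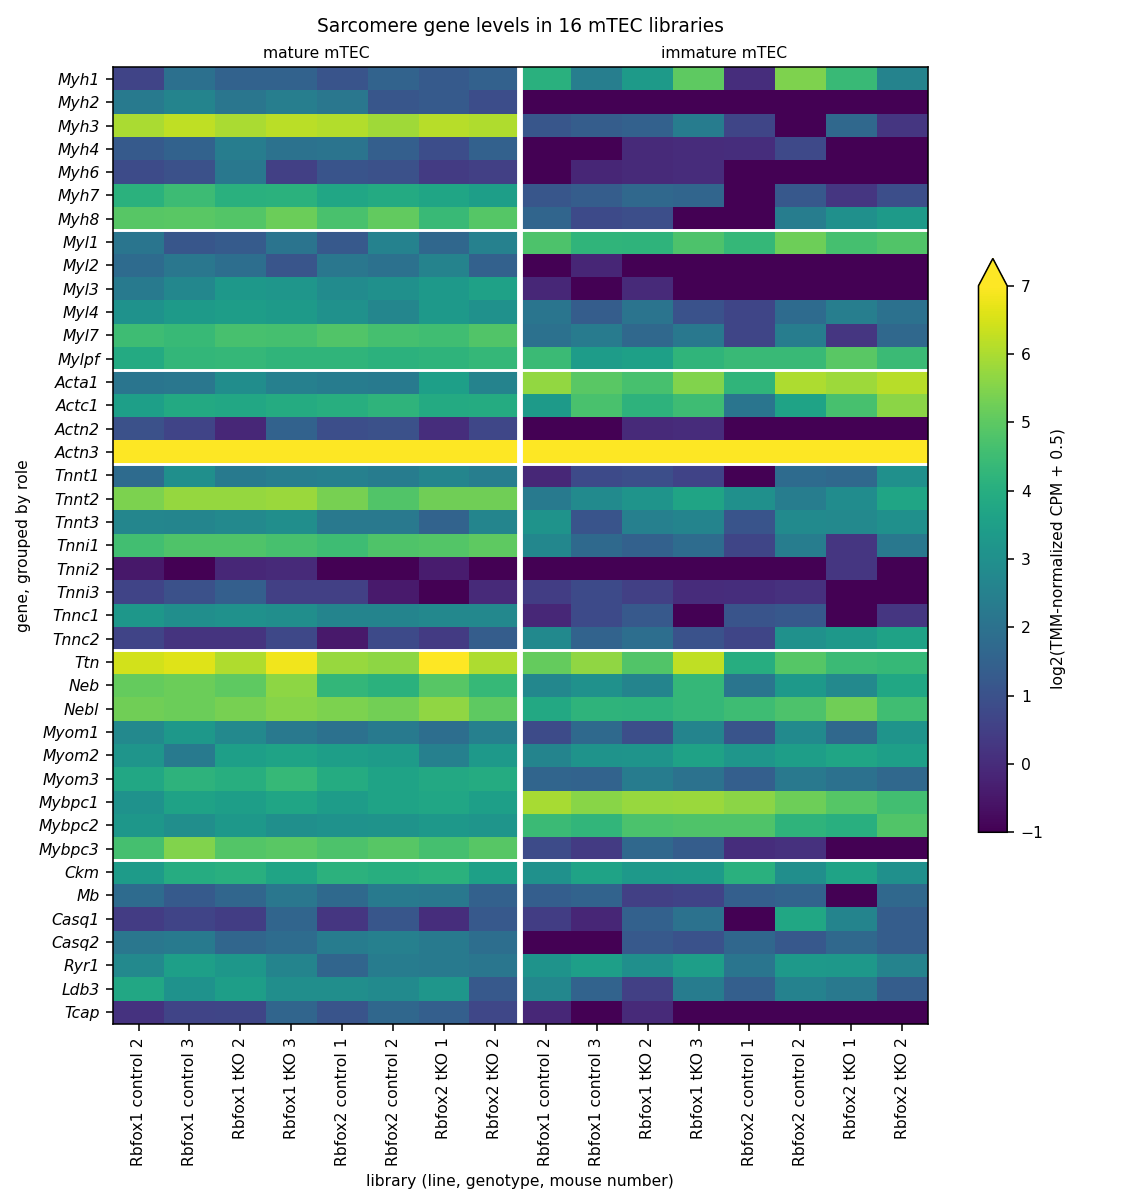
Level of each of the 41 sarcomere genes (rows, grouped by role) in each of the 16 libraries (columns) as log2 of CPM plus 0.5, with values past the ends of the scale drawn in the end colours. Actn3 was at the top of the scale throughout, Myh3 and Mybpc3 were bright in all 8 mature libraries, and Acta1 and Mybpc1 were brighter in the immature ones.

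Mature and immature mTEC were compared first in the 4 control mice. The fit held line as a covariate and treated the mature and immature library of a mouse as independent. A term for each mouse was used only in an alternative fit. Of 41 members 29 had enough counts for the test, and 16 were higher and 5 were lower in mature mTEC, with an adjusted p under 0.05 and a change over 2-fold (quasi-likelihood test of edgeR, Benjamini-Hochberg over all genes). Over all 15357 genes tested, 34.4% were called, 23.7% higher and 10.8% lower. The median log2 fold change of the tested members was 1.19, against 0.02 over all genes. The tKO mice gave a comparison on other libraries, with 29 members tested, 15 higher and 5 lower, against 34.7% of all 15189 genes called, 23.2% higher and 11.5% lower. There the median was 1.34. In both sets of mice 15 members were higher and 5 were lower, and 1, Casq2, was called in control mice and was not tested in tKO mice. DESeq2 called 22 members in control and 20 in tKO mice. The share of all genes that DESeq2 called is not given here, so its 2 counts are descriptions. A member in the test had to reach enough counts in at least 1 population, so the counts of members called describe the better covered ones.

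Among the 7 myosin heavy chains, the motors of the thick filament, Myh3, Myh8 and Myh7 were higher in mature mTEC and Myh1 was lower. Myh3, the embryonic form (chromosome 11 of GRCm38, 67078300 to 67102291), was at 63.2 and 75.3 CPM in mature mTEC of Rbfox1 control mice, 63.4 and 72.1 in Rbfox1 tKO, 66.6 and 57.0 in Rbfox2 control and 69.8 and 65.7 in Rbfox2 tKO mice. In immature mTEC it was at 1.71 and 2.04, 2.32 and 4.59, 1.08 and 0, and 2.79 and 0.690 CPM in the same order. Every mature library lay far above every immature one. The mean in control mice was 65.5 ± 7.6 against 1.21 ± 0.90 CPM (SD, n = 4 mice), with a log2 change of 5.63 with standard error 0.26 and adjusted p = 2.5e-10, and in tKO mice the log2 fold change was 4.65 ± 0.22 (SE). Myh8, the perinatal form, had a mean of 29.7 against 2.15 CPM in control mice (log2 fold change 3.85 ± 0.35, SE). Myh7, the slow and ventricular form, had 16.5 against 1.39 CPM (3.54 ± 0.35).

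Myh1, the fast IIx form, went the other way and varied widely among immature libraries. It was at 16.3 and 4.90 CPM in Rbfox1 control, 9.73 and 31.6 in Rbfox1 tKO, 0.542 and 43.7 in Rbfox2 control and 20.9 and 5.52 in Rbfox2 tKO mice, against 1.05 to 3.41 CPM in the 8 mature libraries. The Rbfox2 control immature library of replicate 1 lay below every mature library and the other 7 above. The log2 fold change was -2.80 ± 0.74 (SE) in control mice (adjusted p = 0.0039). Fast IIa Myh2 had no count in any of the 8 immature libraries and 6 to 26 counts in each mature one, which was at least 11.5-fold higher in control and at least 7.41-fold higher in tKO mice against a floor of 3 counts over the group. The fast IIb form Myh4 had 45 counts in mature and 3 in immature mTEC of control mice, a ratio of 7.29 (exact 95% counting interval 2.34 to 36.7), and the atrial form Myh6 26 and 1, a ratio of 12.6 (2.08 to 518). These 3 were not tested. Windows of 100 bases shared with other genes made up 11.4% of Myh6, 11.2% of Myh7, 9.73% of Myh1, 9.17% of Myh2, 6.61% of Myh8, 3.85% of Myh4 and 1.15% of Myh3, so some reads of these heavy chains are uncertain in origin.

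Of the 6 light chains, Myl3, Myl7 and Myl4 were higher in mature mTEC and Myl1 was lower. Myl3, the slow and ventricular essential light chain (chromosome 9, 110741861 to 110769798), was at 4.42 and 5.97 CPM in mature mTEC of Rbfox1 control, 9.09 and 8.66 of Rbfox1 tKO, 6.75 and 7.58 of Rbfox2 control and 9.47 and 11.4 of Rbfox2 tKO mice. In immature mTEC 6 of 8 libraries had no count and Rbfox1 control and Rbfox1 tKO replicate 2 had 1 count each. The ratio of mature to immature was 53.0 (exact 95% counting interval 9.31 to 2112) in control and 70.2 (12.4 to 2787) in tKO mice. Myl3 overlaps Pth1r on the other strand, which had 437 counts in mature and 16 in immature libraries. The strand setting of the counting is not known here, so reads of overlapping genes cannot be told apart. Myl7, the atrial regulatory light chain, had 23.9 ± 3.2 against 3.45 ± 1.7 CPM in control mice (SD, n = 4), with a log2 change of 2.76 ± 0.26 (SE). Myl4, the atrial and embryonic form, had 1.67 ± 0.32. Myl1, the fast essential light chain, was lower in mature mTEC at 3.19 ± 1.7 against 25.4 ± 8.6 CPM (SD, n = 4), with a log2 change of -2.96 ± 0.32 (SE, adjusted p = 1.6e-06), and 9.36% of its windows were shared with a pseudogene. Mylpf, its fast regulatory partner, was not called, with -0.06 ± 0.21. Myl2, the ventricular regulatory light chain, was not tested and had 64 counts in mature and 1 in immature mTEC of control mice, a ratio of 31.1 (5.39 to 1248). It overlaps Ccdc63 on the other strand, with 28 and 0 counts over the libraries of each population.

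Among actins and actinins, Actn3 was higher and Acta1 lower in mature mTEC. Actn3 (chromosome 19, 4861216 to 4877909) was at 657 and 642 CPM in mature mTEC of Rbfox1 control, 719 and 648 of Rbfox1 tKO, 705 and 756 of Rbfox2 control and 830 and 762 of Rbfox2 tKO mice. In immature mTEC the values were 344 and 355, 341 and 301, 266 and 264, and 236 and 240 CPM. The groups did not overlap, and the change was 1.19 ± 0.10 on the log2 scale in control and 1.43 ± 0.11 in tKO mice (SE, adjusted p = 9.3e-08 and 6.7e-09). Actn3 had the highest level of the sarcomere genes in both populations.

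Acta1, skeletal alpha-actin of the thin filament (chromosome 8, 123891769 to 123894751), was at 3.79 and 4.05 CPM in mature mTEC of Rbfox1 control, 7.14 and 5.15 of Rbfox1 tKO, 4.66 and 4.40 of Rbfox2 control and 10.8 and 5.50 of Rbfox2 tKO mice. In immature mTEC it was at 51.4 and 30.6, 25.0 and 44.4, 18.4 and 63.5, and 56.5 and 70.4 CPM. All immature libraries lay above all mature ones, and they varied more among themselves. The log2 fold change was -3.24 ± 0.34 in control and -2.73 ± 0.23 in tKO mice (SE, adjusted p = 1.0e-06 and 1.9e-08). Actc1, cardiac alpha-actin, was not called in control mice (0.19 ± 0.36) and had -0.91 ± 0.22 in tKO mice, under the fold threshold. Actn2, the muscle actinin of all fibres, had 24 counts in mature and 0 in immature mTEC of control mice, at least 3.89-fold higher.

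Of the 8 troponins, Tnnt2, Tnni1 and Tnnc1 were higher in mature mTEC and none was lower. Tnnt2, cardiac troponin T (chromosome 1, 135836354 to 135852260), was at 42.4 and 52.7 CPM in mature mTEC of Rbfox1 control, 53.2 and 54.8 of Rbfox1 tKO, 40.8 and 28.1 of Rbfox2 control and 37.6 and 38.0 of Rbfox2 tKO mice. In immature mTEC it was at 4.28 and 6.53, 8.34 and 12.2, 7.59 and 4.79, and 6.97 and 12.4 CPM, below every mature library. The log2 fold change was 2.85 ± 0.23 in control and 2.24 ± 0.18 in tKO mice (SE, adjusted p = 6.2e-08 and 7.7e-09). Tnni1, slow troponin I, had 2.77 ± 0.28 and Tnnc1, the calcium sensor of slow and cardiac fibres, 2.50 ± 0.39 in control mice. Tnnc1 overlaps Nisch. Tnnt3, fast troponin T, was not called (0.20 ± 0.41). Tnnt1, slow troponin T, was tested in tKO mice (0.77 ± 0.41) and not called. Fast Tnnc2 was not tested between populations and ran from 0.233 to 2.06 CPM in mature mTEC and 1.08 to 11.7 CPM in immature mTEC. Fast Tnni2 had at most 0.697 CPM and cardiac Tnni3 at most 2.16 CPM in any library. Tnnc2 overlaps Ube2c and Tnni3 overlaps Dnaaf3.

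**Figure D2:**
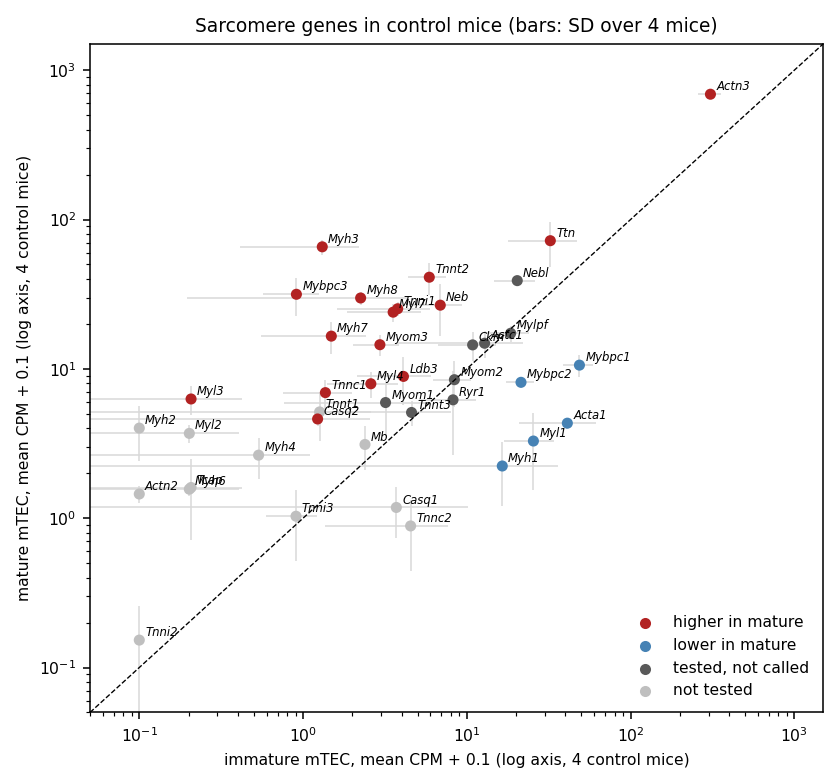
Mean level of each member in mature (vertical axis) against immature mTEC (horizontal axis) of the 4 control mice, both as CPM plus 0.1 on log axes, with the SD over mice as bars that are cut at the edge of the plot, and a dashed line of equal levels. Red points (16) were called higher in mature mTEC and blue points (5: Myh1, Myl1, Acta1, Mybpc1 and Mybpc2) lower.

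All 9 giant, M-band and myosin-binding proteins were tested. Mybpc3, Myom3, Neb and Ttn were higher in mature mTEC and Mybpc1 and Mybpc2 lower. The 3 myosin-binding proteins C, which brace myosin in the thick filament, thus differed in direction. Mybpc3, the cardiac form, had 31.5 ± 8.9 against 0.811 ± 0.34 CPM in control mice (SD, n = 4), with a log2 change of 5.20 ± 0.36 (SE, adjusted p = 1.5e-08). Mybpc1, the slow form (chromosome 10, 88518279 to 88605152), was at 8.01 and 11.7 CPM in mature mTEC of Rbfox1 control, 10.6 and 12.4 of Rbfox1 tKO, 10.2 and 12.0 of Rbfox2 control and 12.7 and 11.0 of Rbfox2 tKO mice. In immature mTEC it was at 61.7 and 47.4, 53.7 and 54.6, 48.3 and 37.1, and 29.3 and 23.5 CPM, above every mature library. The log2 fold change was -2.20 ± 0.18 in control and -1.75 ± 0.19 in tKO mice (SE, adjusted p = 6.8e-08 and 5.3e-07). Mybpc2, the fast form, had -1.38 ± 0.19 and -1.48 ± 0.20.

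Ttn, the spring that spans each sarcomere arm (chromosome 2, 76703980 to 76982547), was at 88.1 and 96.8 CPM in mature mTEC of Rbfox1 control, 66.0 and 114 of Rbfox1 tKO, 54.0 and 49.2 of Rbfox2 control and 135 and 63.6 of Rbfox2 tKO mice. In immature mTEC it was at 33.8 and 50.6, 27.8 and 75.0, 15.2 and 29.4, and 21.6 and 20.02 CPM. The populations overlapped, but within each mouse the mature library was higher. The log2 fold change was 1.19 ± 0.15 in control and 1.39 ± 0.32 in tKO mice (SE, adjusted p = 8.8e-06 and 0.0012). Neb, the ruler of the skeletal thin filament (chromosome 2, 52136647 to 52378474), was at 34.1 and 36.5, 31.6 and 49.6, 19.1 and 16.6, and 29.5 and 20.1 CPM in mature and 6.00 and 7.76, 5.56 and 19.4, 3.80 and 9.59, and 6.27 and 13.1 CPM in immature mTEC, in the same order of groups. The populations overlapped. Its change was 2.01 ± 0.24 in control and 1.603 ± 0.29 in tKO mice. Nebl, its cardiac relative (chromosome 2, 17343909 to 17731464), was at 37.7 and 36.5, 40.9 and 46.6, 42.4 and 38.9, and 50.6 and 31.6 CPM in mature and at 13.7 and 17.96, 17.6 and 19.4, 22.2 and 27.0, and 38.3 and 22.8 CPM in immature mTEC, with overlap. Its log2 fold change of 0.99 ± 0.15 in control mice (adjusted p = 3.3e-05) was just under the fold threshold, and DESeq2 (1.03) called it. Of the M-band proteins, Myom3 was higher (2.39 ± 0.27) and Myom1 (1.02 ± 0.45) and Myom2 (0.01 ± 0.26) were not called. Myom1 overlaps Myl12a.

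Of the 7 calcium, energy and Z-disc proteins, Casq2, which stores calcium in cardiac and slow fibres, and Ldb3, a Z-disc adaptor, were higher in mature mTEC of control mice, with 2.18 ± 0.56 and 1.18 ± 0.34. The call of Ldb3 was lost without Rbfox1 control replicate 2 in mature (0.93) or replicate 3 in immature mTEC (0.86). Casq2 was not tested without Rbfox1 control replicate 3 or either Rbfox2 control library of mature mTEC. Ckm, muscle creatine kinase (0.42 ± 0.24), and Ryr1, the calcium release channel (-0.40 ± 0.33), were not called. Mb, which stores oxygen, ran from 0 to 4.40 CPM, fast Casq1 from 0 to 13.2 CPM and the titin cap Tcap from 0 to 2.69 CPM, and they were not tested. Mb overlaps Apol6 and Ckm overlaps A930016O22Rik.

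**Figure D3:**
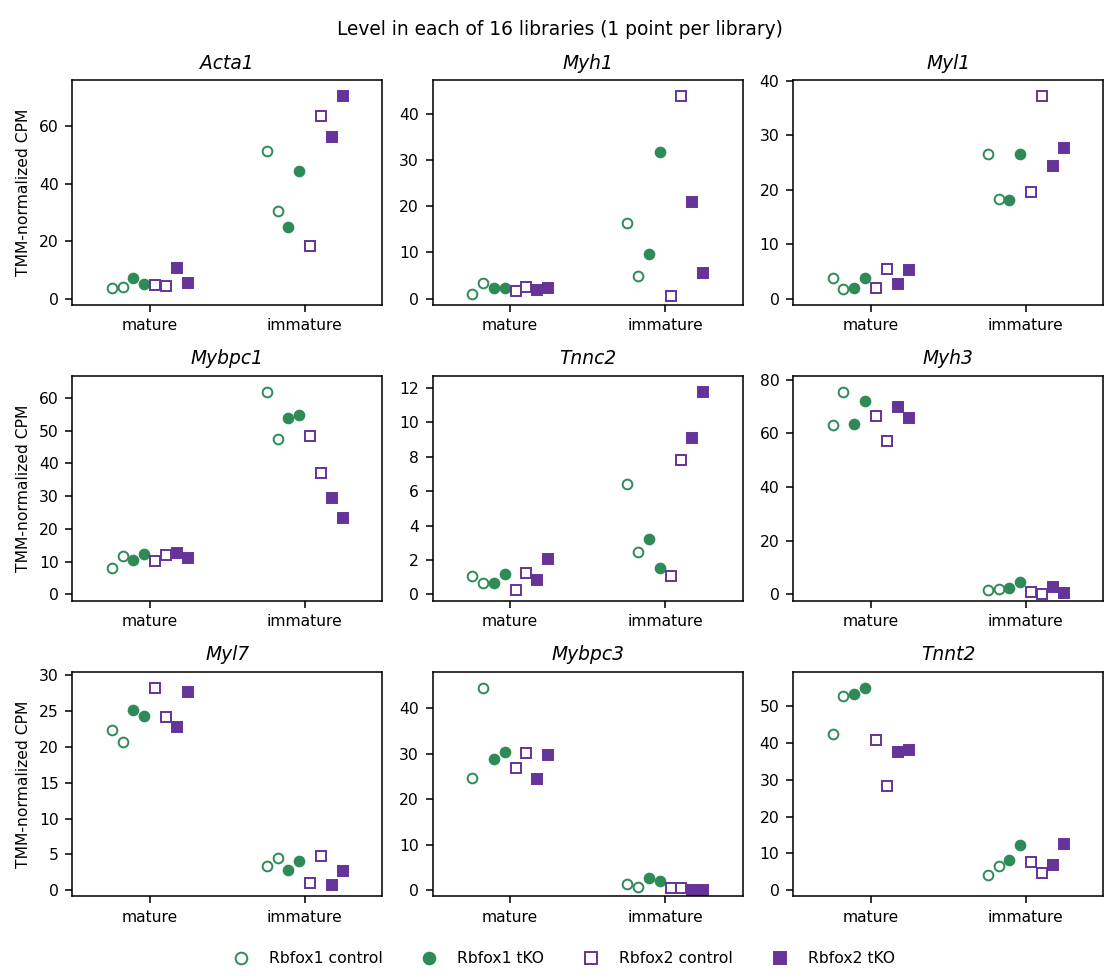
Level of 9 members in each of the 16 libraries, 1 point per library, with circles for the Rbfox1 line, squares for the Rbfox2 line, open symbols for control and filled symbols for tKO mice. Acta1, Myl1 and Mybpc1 were higher in every immature library, Myh1 in 7 of 8 and Tnnc2 with overlap, whereas Myh3, Myl7, Mybpc3 and Tnnt2 were higher in every mature library.

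Deletion was compared with control next, in the 8 libraries of a population at a time, with 2 mice against 2 in each line. By edgeR or by DESeq2, no sarcomere gene was called in any of the 4 comparisons with the main settings, which hold no replicate block. There were 35 members tested in mature and 21 in immature mTEC. In immature mTEC of the Rbfox2 line 1 (Actc1) was called with the replicate block, without a filter and in 1 fit of all 16 libraries. Fits without 1 library are described below. Over all genes tested 0.0166% were called in mature mTEC of the Rbfox1 line, 0.0277% in mature mTEC of the Rbfox2 line, and 0.0306% and 0.0536% in immature mTEC of the 2 lines, so calls were rare throughout. An unadjusted p under 0.05 was reached by 3, 2, 1 and 3 members in the same order, against 3.35%, 5.34%, 5.90% and 6.25% of all genes. Median log2 fold changes of the members were 0.10, 0.07, 0.14 and 0.30. With both lines together, 4 tKO against 4 control mice, no member was called (0.0166% of genes in mature and 0.0306% in immature mTEC), with 4 members (Myl3, Acta1, Neb and Ttn) and 2 members (Actc1 and Tnnt2) at an unadjusted p under 0.05 and none called by DESeq2. Differences between the effects of the lines gave no call either, with 3 members at an unadjusted p under 0.05 in mature and 4 in immature mTEC and none called by DESeq2 (0.00555% and 0.00766% of genes called). The joint comparisons use the same mice as the comparisons of each line. For them and for the differences between effects, the share of all genes at an unadjusted p under 0.05 is not given here. Those counts of members are therefore descriptions.

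**Figure D4:**
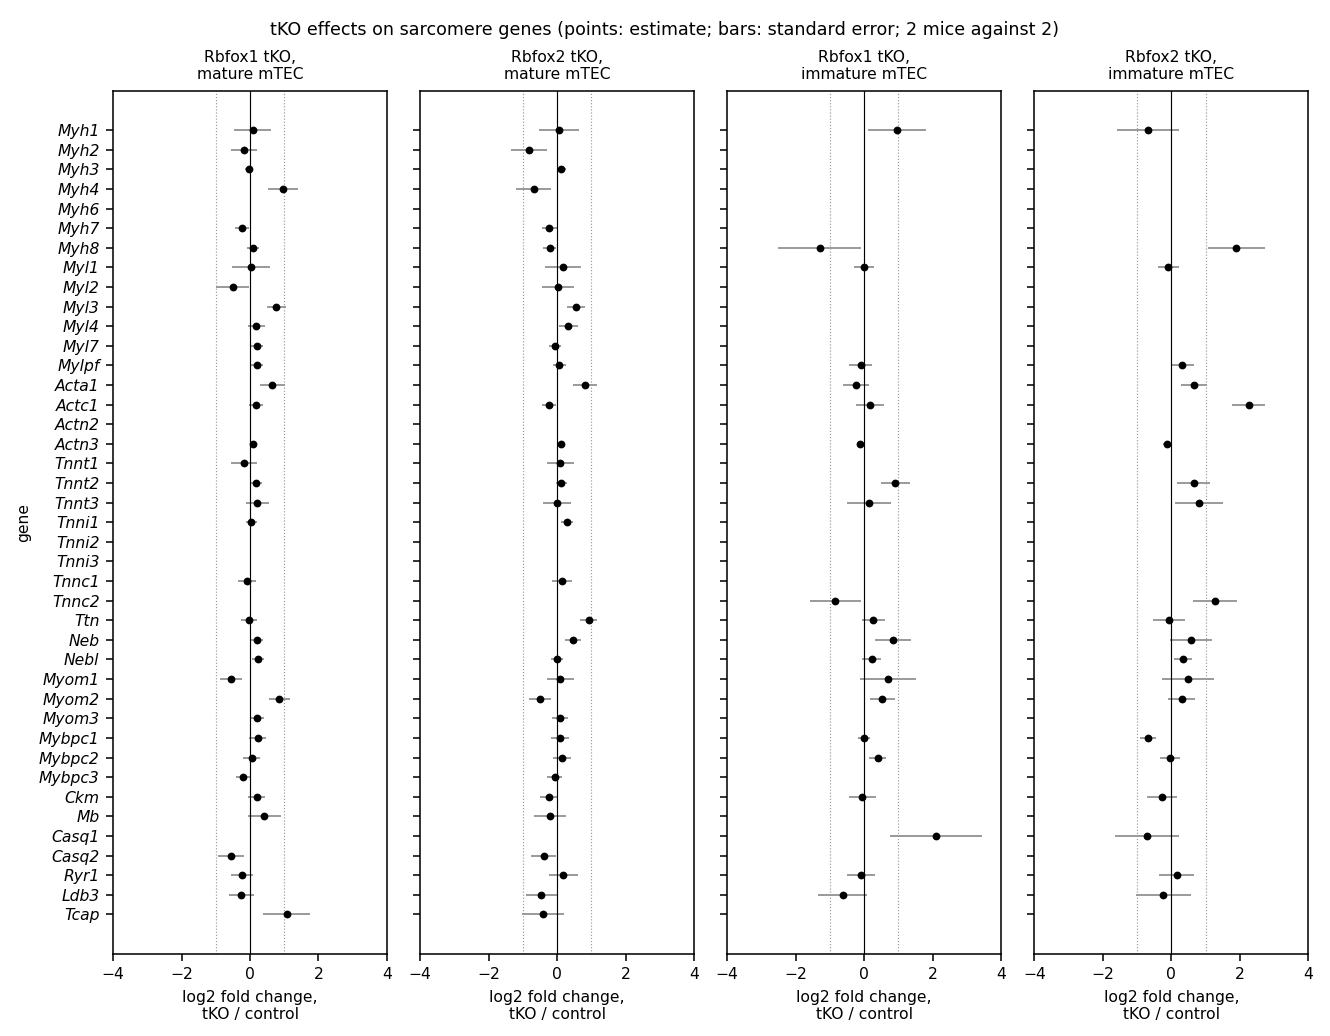
Log2 fold change of tKO against control with its standard error for every tested member in each line and population, with dotted lines at the 2-fold threshold. Most estimates lay between the dotted lines, none was called in the fits plotted, which have no replicate block, and standard errors were larger in immature mTEC.

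The member with the smallest p was Actc1 in immature mTEC of the Rbfox2 line (chromosome 2, 114047282 to 114053548). It was at 3.80 and 12.0 CPM in the control and 25.1 and 48.3 CPM in the tKO mice, so the groups did not overlap. The log2 fold change was 2.26 ± 0.48 (SE, unadjusted p = 0.00022, adjusted p = 0.14 by edgeR). With the replicate block, which pairs each tKO mouse with the control of its number and sex, Actc1 was called (2.26, adjusted p = 0.0092), as it was without a filter (2.23) and in 1 fit of all 16 libraries (2.25). DESeq2 gave it no adjusted p, and leaving out 1 library of the line gave an adjusted p from 0.070 to 0.85. Rbfox1 line values were 9.85 and 25.3 CPM in control and 17.6 and 22.5 CPM in tKO mice, which overlapped, and in mature mTEC the 4 groups, in the order used above, were at 11.0 and 14.1, 13.4 and 14.8, 15.8 and 18.1, and 14.3 and 14.7 CPM. The difference between the lines had a log2 value of 2.09 ± 0.64 (SE, adjusted p = 0.97). Fibroblast markers summed to 2773 and 2182 CPM in the Rbfox2 tKO and 2180 and 1853 CPM in the Rbfox2 control libraries. Endothelial markers summed to 212 and 146 CPM in the tKO and 119 and 68.9 CPM in the control libraries, with Cdh5 at 1.28 ± 0.32 (adjusted p = 0.29). Myog, a myogenic regulator, had 0.83 ± 0.25 (adjusted p = 0.53). The part of these in the Actc1 values was not tested. Mybpc1 went down in the same comparison by p alone, at 48.3 and 37.1 against 29.3 and 23.5 CPM, with -0.68 ± 0.22 (SE, adjusted p = 0.62).

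Titin was the leading member in mature mTEC of the Rbfox2 line, where 1 tKO library stood apart. It was at 54.0 and 49.2 CPM in control and 135 and 63.6 CPM in tKO mice, with a log2 fold change of 0.92 ± 0.25 (SE, unadjusted p = 0.0017, adjusted p = 0.47 by edgeR). Without Rbfox2 tKO replicate 2 it was called (1.38, adjusted p = 0.0078), which left the higher library alone against the controls. Acta1 had 0.82 ± 0.35 there (adjusted p = 0.90). Over both lines, Acta1 was at 5.15 to 10.8 CPM in mature tKO and 3.79 to 4.66 CPM in mature control libraries. Myl3 was at 8.66 to 11.4 and 4.42 to 7.58 CPM. Neither was called, with joint log2 fold changes of 0.74 ± 0.25 (adjusted p = 0.999) and 0.65 ± 0.19 (adjusted p = 0.85). How often such ranges separate over all genes was not counted. In the Rbfox1 line Myl3 had 0.77 ± 0.28 and Myom2, an M-band protein (chromosome 8, 15057653 to 15133541), 0.85 ± 0.31 (SE, both with an adjusted p of 1). Myom2 was at 8.43 and 4.27 CPM in control and 11.0 and 11.9 CPM in tKO mice of the Rbfox1 line, and at 10.7 and 10.03 against 5.14 and 9.39 CPM in the Rbfox2 line, and its immature libraries were at 5.57 and 8.16, 8.34 and 11.7, 8.68 and 10.8, and 12.6 and 11.1 CPM in the order of groups used above. In immature mTEC of the Rbfox1 line Tnnt2 had 0.91 ± 0.43 (adjusted p = 0.84). Counts per gene do not show which exons are used. The paper reports changes in splicing in these tKO mice, with Myom2 in mature mTEC of Rbfox2 tKO mice among its examples.

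**Figure D5:**
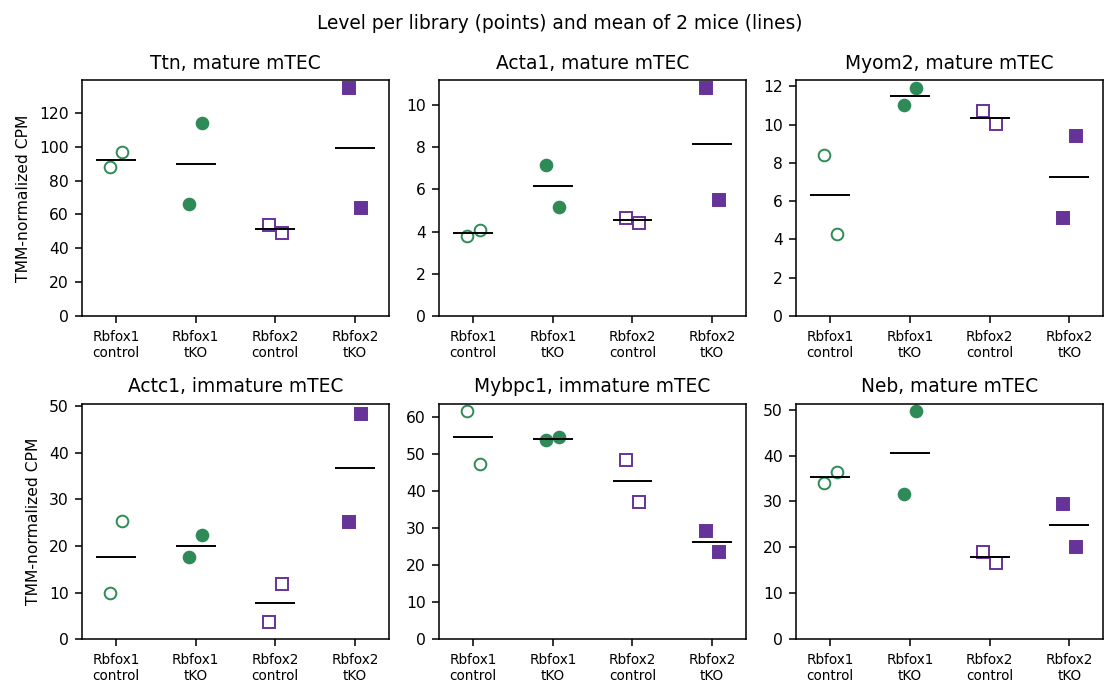
Level per library in the 4 groups of a population for 5 members with small unadjusted p in a tKO comparison (Ttn, Acta1, Myom2, Actc1 and Mybpc1) and for Neb, with lines at the means of 2 mice. Actc1 was higher in both immature Rbfox2 tKO libraries than in both Rbfox2 controls, and Neb was higher in mature mTEC of the Rbfox1 line than of the Rbfox2 line in both genotypes.

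The lines themselves were also compared, a comparison added after the values were seen. It sets 4 Rbfox1 line against 4 Rbfox2 line libraries with genotype as a covariate, and line cannot be told apart from litter. Aire was also higher in the Rbfox1 line, by 0.995 ± 0.08 in mature and 2.71 ± 0.17 in immature mTEC (log2, SE), and its part in these values was not tested. In mature mTEC Ryr1 (1.04 ± 0.26, adjusted p = 0.011) and Myh2 (1.06 ± 0.32, adjusted p = 0.029) were higher in the Rbfox1 line and none was lower, against 1.05% of genes called, 0.782% higher and 0.272% lower. DESeq2 called Ryr1 alone. Without 1 library the count ranged from 0 to 2, and it was 0 without Rbfox1 control replicate 3 or Rbfox1 tKO replicate 2. Neb at 31.6 to 49.6 against 16.6 to 29.5 CPM (0.84 ± 0.15, adjusted p = 0.00061), Tnnt2 (0.49 ± 0.11) and Myh7 (0.52 ± 0.15) were under the fold threshold. Actn3 was lower in mature mTEC of the Rbfox1 line, at 642 to 719 against 705 to 830 CPM (-0.20 ± 0.06, adjusted p = 0.027), and higher in its immature mTEC, at 301 to 355 against 236 to 266 CPM (0.42 ± 0.07, adjusted p = 0.00027), both under the fold threshold. In immature mTEC Ttn alone was called, and it was higher in the Rbfox1 line (1.11 ± 0.27, adjusted p = 0.00605). This share of the tested members was near that of all genes, of which 5.0% were called, 3.08% higher and 1.92% lower. Ttn was not called by DESeq2, nor without Rbfox1 tKO replicate 3 (0.75), whose 75.0 CPM stood apart, or without Rbfox2 control replicate 1 (0.96). Without the latter library Myh8, Tnnt1, Tnnc2 and Casq1 were called lower in the Rbfox1 line. The share of all genes called in that fit is not given here.

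Other genes of muscle, fixed as lists of 59 genes, were counted beside the sarcomere genes. Between mature and immature mTEC of control mice 42 were tested, 23 were higher and 8 lower, beside 23.7% and 10.8% of all genes. Of 10 tested genes of excitation and calcium handling 6 were higher and none lower, among them Ryr2, the cardiac calcium release channel (3.50 ± 0.33), and Cacna1s, the skeletal voltage sensor (3.02 ± 0.20). Of 10 tested genes of the neuromuscular junction 6 were higher and 2 lower, with Chrne, the adult acetylcholine receptor subunit, at 3.94 ± 0.32 and Agrn, which organizes the synapse, at -2.31 ± 0.13. Of 13 tested genes of the cytoskeleton and membrane 8 were higher and 4 lower, with Myot, a Z-disc protein, at 3.39 ± 0.28 and the tropomyosins Tpm1 and Tpm2 at -1.35 ± 0.08 and -2.25 ± 0.07. Of 9 tested myogenic regulators Pax7 (4.03 ± 0.42), Mymk (2.23 ± 0.34) and Mymx (1.06 ± 0.35) were higher and Myog (-1.33 ± 0.27) and Mef2a (-1.14 ± 0.10) lower. Myod1, Myf6 and Myf5 had 94, 63 and 20 counts over the mature and 3, 4 and 0 over the immature libraries, without scaling for library size. None of the 59 was called in a tKO comparison of either line, and none was called by DESeq2. In mature mTEC 2 and 4 of them, and in immature mTEC 2 and 1, had an unadjusted p under 0.05. The shares of all genes at that p in these comparisons are given above.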

How the data were processed

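RNA was sequenced from mTEC of tKO and control mice of both lines, in mature and immature cells. The authors deposited raw counts per gene, made after duplicate removal and down-sampling of the libraries. HISAT2 2.1.0, Picard 2.10.9, featureCounts 1.6.0 and mm10 are named in the submitters' processing notes. The setting of featureCounts for strand and for reads with several matches was not given in the sources used here. Totals set the precision: with 1506134 to 4636367 counts per library, members at a few counts were not tested.

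Tests were run in edgeR 4.0.16 under R 4.3.3 (TMM, filterByExpr at a minimum count of 10, quasi-likelihood test) with calls at an adjusted p (Benjamini-Hochberg) under 0.05 and a change over 2-fold. Differences between effects used the adjusted p alone. Replicates are separate mice, and replicate libraries differed by more than counting noise (chi-square 1.87 to 3.00 per degree of freedom). Alternatives were DESeq2 1.42.0, its size factors or library totals, thinned libraries, a stricter filter (10 or more counts in each library) or none, the replicate block, no fold threshold, fits on fewer or more libraries, a sex term, and leaving out each library. Counting intervals are exact and cover counting error only. The test was tested on simulated data before use.

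Mature and immature libraries of a mouse share that mouse, and their deviations from the group means correlated by 0.179 to 0.303. Over autosomal genes alone these correlations were 0.0942 to 0.199. Each condition held 1 female and 1 male, whose deviations mirror each other, so mouse and sex cannot be told apart in these correlations. The main fits of mature against immature mTEC ignored this pairing, and there the replicate block was a term for each mouse. The methods describe sex-matched littermates as controls. In tKO comparisons the replicate block pairs a tKO and a control mouse of 1 number, though no label ties a number to a litter. Members and lists were chosen with earlier results of these data known. Every member is named under its role, and all libraries are given for the 8 of highest mean level and for the 2 with the smallest p in each tKO comparison of a line. Names and positions are from GENCODE M21 (GRCm38). Actn3, Neb, Tnni2, Tnnt3, Myom2 and Tcap have no promoter here.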

Additional observations from a re-analysis of the deposited data

Results flagged for a closer look

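In 48 groups of 4 libraries, 4 had a library that lay apart from the other 3 by Dixon's test, where chance alone gives about 1 in 20. The summed level of the sarcomere genes in immature mTEC of control mice was lowest in Rbfox2 control replicate 1, at 503 CPM. The level of Ttn in immature mTEC of tKO mice was highest in Rbfox1 tKO replicate 3, at 75.0 CPM. Myl3 stood out in Rbfox1 control immature replicate 2, at 0.428 CPM, and in Rbfox1 tKO immature replicate 2, at 0.463 CPM, each of which is 1 count beside 3 libraries with none. Where 3 values are equal, any other value lies apart by this test. The groups of 4 also hold both lines, so no excess over chance is read from these flags.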

How the results depend on the processing

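No sarcomere gene called in a comparison reversed direction under any alternative run. Between mature and immature mTEC the call count was 20 to 26 in control and 19 to 22 in tKO mice without 1 library. It fell to 6 in each with at least 10 counts in every library, since fewer members were then tested. The shares of all genes called under the alternatives of this section are not given here, so these counts of members are descriptions. In the Rbfox2 line of immature mTEC the count of 0 became 1, Actc1, without a filter, in 1 fit of all 16 libraries and with the replicate block (1 member, adjusted p = 0.0092). The block changed no other call. A tKO mouse and the control of its number share sex, and the methods describe littermate controls. The deviations of these pairs correlated by 0.0908 to 0.312 over all genes used and by -0.00662 to 0.148 over autosomal genes. Litter and sex cannot be told apart in these correlations. With both lines in immature mTEC it became 1 without a filter, and without 1 library 0 to 1 (Rbfox1 control replicate 3 left out). In mature mTEC of the Rbfox2 line it was 0 to 1 without 1 library. Differences between the lines' effects gave 1 member in each population without a filter. Between the lines, in mature mTEC, DESeq2 and the stricter filter each gave 1, no fold threshold 6, and leaving out 1 library 0 to 2. In immature mTEC DESeq2 gave 0, no filter 3, no fold threshold 4, and leaving out 1 library 0 to 4. The summed level without the 3 highest members was 418 CPM in mature mTEC and 309 CPM in immature mTEC, against 1282 and 638 CPM with them, and at least 5 counts left 20.6 members detected in immature mTEC against 31.9. The causes were not tested. Low counts limit what can be seen in immature mTEC.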
